A study of Mus musculus with 2 samples.

Results

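The genes described here are 10 C-type lectin receptors of myeloid cells: Clec4a1, Clec4a2, Clec4a3, Clec4d, Clec4n, Clec7a, Mgl2, Clec10a, Asgr2 and Cd209a. They were taken by name from a list drawn up with earlier results of these data known, and all 10 are among the 26124 genes of both matrices. The study asked how heme, the iron-bearing group of hemoglobin that is set free when red cells break down, acts on the differentiation of bone marrow progenitors. Lineage-depleted bone marrow cells of C57BL/6 mice aged 8 to 10 weeks were grown with GM-CSF, a growth factor for dendritic cells, macrophages and granulocytes, at 20 ng/ml and with 40 ng/ml added on day 2. On day 3 the cultures received either heme bound to albumin at 300 µM (heme) or albumin alone (control). Each group was 1 library of single-cell transcriptomes, a pool of 5 cultures that had been marked with antibody-bound DNA hashtags for harvest on days 0, 3, 4, 5 and 7.

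By their labels the cultures of days 0 and 3 saw no heme, and their values are given as background. The exposure times of 0, 24, 72 and 96 h in the series description cannot all be matched to these days (day 5 is 2 days after addition), so results are given by culture day. A cell was kept if it had 1 hashtag and 500 to 5000 genes with a UMI (unique molecular identifier, 1 counted transcript molecule), and if mitochondrial UMIs were under 15% and those of ribosomal proteins under 30%. This left 9685 control and 9941 heme cells, with 599 to 2715 cells and 6213167 to 34647365 UMIs per culture, and 33 barcodes were kept in both libraries. The upper limit on genes took out 1.92% to 8.34% of the control and 16.4% to 33.9% of the heme singlets. The median log2 ratio of all genes tested, heme to control, was 0.31 on day 3 and lay between 0.25 and 0.28 on days 4 to 7. Neither group had a replicate library, so no test between groups was possible, and every interval below is an exact 95% interval that covers counting error only.

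C-type lectin receptors are membrane proteins that bind sugars or lipids through a shared domain, in many cases with the help of calcium. Clec7a (dectin-1, a receptor for fungal beta-glucan), Clec4n (dectin-2, a receptor for fungal mannan) and Clec4d (also called MCL, a receptor for mycobacterial glycolipid) signal through the kinase Syk, Clec7a by its own cytoplasmic tail and Clec4n through the Fc receptor gamma chain. Clec4a2 (DCIR) carries an inhibitory motif, and Clec4a1 and Clec4a3 are its close relatives. Mgl2 (CD301b) and Clec10a (CD301a) bind galactose and N-acetylgalactosamine and are known from dendritic cells and macrophages, Asgr2 is a subunit of the asialoglycoprotein receptor best known from liver, and Cd209a is a mouse relative of DC-SIGN found on dendritic cells.

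The genes lie in 4 places of the mouse genome (GRCm38, GENCODE M21 annotation). Clec4a1 (6:122921848-122934619), Clec4a3 (6:122952515-122969875), Clec4a2 (6:123106428-123143999), Clec4n (6:123229843-123247021) and Clec4d (6:123262111-123275265) lie in this order on the plus strand of chromosome 6. Clec7a (6:129461591-129472779) is on the minus strand of the same chromosome, Cd209a (8:3743397-3748984) is on the minus strand of chromosome 8, and Asgr2 (11:70092644-70106187), Mgl2 (11:70130329-70137550) and Clec10a (11:70156197-70170834) lie in this order on the plus strand of chromosome 11. The library counts 3′ ends, and of the 50-base words in the last 500 bases of Clec10a, 20.4% also occur in Mgl2, so part of the counts of this pair is uncertain. For Mgl2 4.21% of these words occur in other genes, and for the other 8 genes none does.

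Promoter sequences of 8 of the 10 genes were matched in RefSeq (GRCm38.p6), from 250 bases before to 50 after the annotated start. The stretches of Clec4a1 and Clec4d, which were 9.49-fold and 3.58-fold higher in heme than in control on day 7, and of Mgl2 and Asgr2, which had the lowest ratios, are shown for comparison. They were searched on both strands for TGACNNNGC (the core of the antioxidant response element bound by NRF2), TGANTCA (AP-1) and GAGGAA (the core of PU.1, a factor of myeloid cells). Capitals mark GAGGAA or its reverse complement.
Clec4a1, chr6:122921598-122921897, plus strand: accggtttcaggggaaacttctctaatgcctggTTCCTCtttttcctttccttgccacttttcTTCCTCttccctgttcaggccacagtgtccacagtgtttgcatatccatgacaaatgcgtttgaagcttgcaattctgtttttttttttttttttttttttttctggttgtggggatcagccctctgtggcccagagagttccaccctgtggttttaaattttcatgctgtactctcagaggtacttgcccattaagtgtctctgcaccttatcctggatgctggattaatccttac
Clec4d, chr6:123261857-123262156, plus strand: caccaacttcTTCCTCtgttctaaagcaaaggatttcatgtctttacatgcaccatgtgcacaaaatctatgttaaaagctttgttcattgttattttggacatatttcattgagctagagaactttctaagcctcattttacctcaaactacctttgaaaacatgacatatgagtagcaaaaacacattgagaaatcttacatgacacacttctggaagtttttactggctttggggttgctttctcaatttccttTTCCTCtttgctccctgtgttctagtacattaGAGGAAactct
Mgl2, chr11:70130107-70130406, plus strand: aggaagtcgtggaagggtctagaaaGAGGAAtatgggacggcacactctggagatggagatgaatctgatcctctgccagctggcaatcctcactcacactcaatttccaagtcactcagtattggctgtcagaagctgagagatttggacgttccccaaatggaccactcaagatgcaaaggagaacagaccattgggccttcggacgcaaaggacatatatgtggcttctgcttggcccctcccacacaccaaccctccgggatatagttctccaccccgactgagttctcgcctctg
Asgr2, chr11:70092394-70092693, plus strand: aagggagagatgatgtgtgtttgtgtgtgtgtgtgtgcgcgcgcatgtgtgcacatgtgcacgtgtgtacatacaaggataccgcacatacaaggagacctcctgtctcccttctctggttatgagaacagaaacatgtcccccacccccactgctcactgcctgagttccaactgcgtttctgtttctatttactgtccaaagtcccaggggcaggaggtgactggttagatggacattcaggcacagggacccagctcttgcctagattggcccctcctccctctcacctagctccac
GAGGAA was found in the promoter of 5 of the 8 genes (Clec4a1, Clec4a3, Clec4d, Clec7a and Mgl2), and 31.3% of all 27025 genes in the RefSeq table hold it in a promoter. Clec4d had 3 matches, 1 of them 240 bases before the start and the others 7 and 39 bases after it. TGANTCA was found in Clec4a2 alone among the 8 (8.97% of all genes), and TGACNNNGC in none (14.0% of all genes). The Asgr2 window held none of the 3 motifs. These matches describe letters only and say nothing of binding.

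The 10 genes took 2 courses after day 3. The 6 genes of chromosome 6 (the Clec4 genes and Clec7a) stood higher in heme than in control on day 7, from 1.62-fold for Clec4a2 to 9.49-fold for Clec4a1. The galactose-binding Mgl2, Clec10a and Asgr2, and also Cd209a, stood lower in heme, from 2.41-fold for Clec10a to 60.9-fold for Asgr2. Levels are given as CPM, the UMIs of a gene over all gene UMIs of its culture or gated set on the usual scale of 1000000. At the level of a culture, fewer cells of a type and less RNA per cell cannot be told apart.

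**Figure D1:**
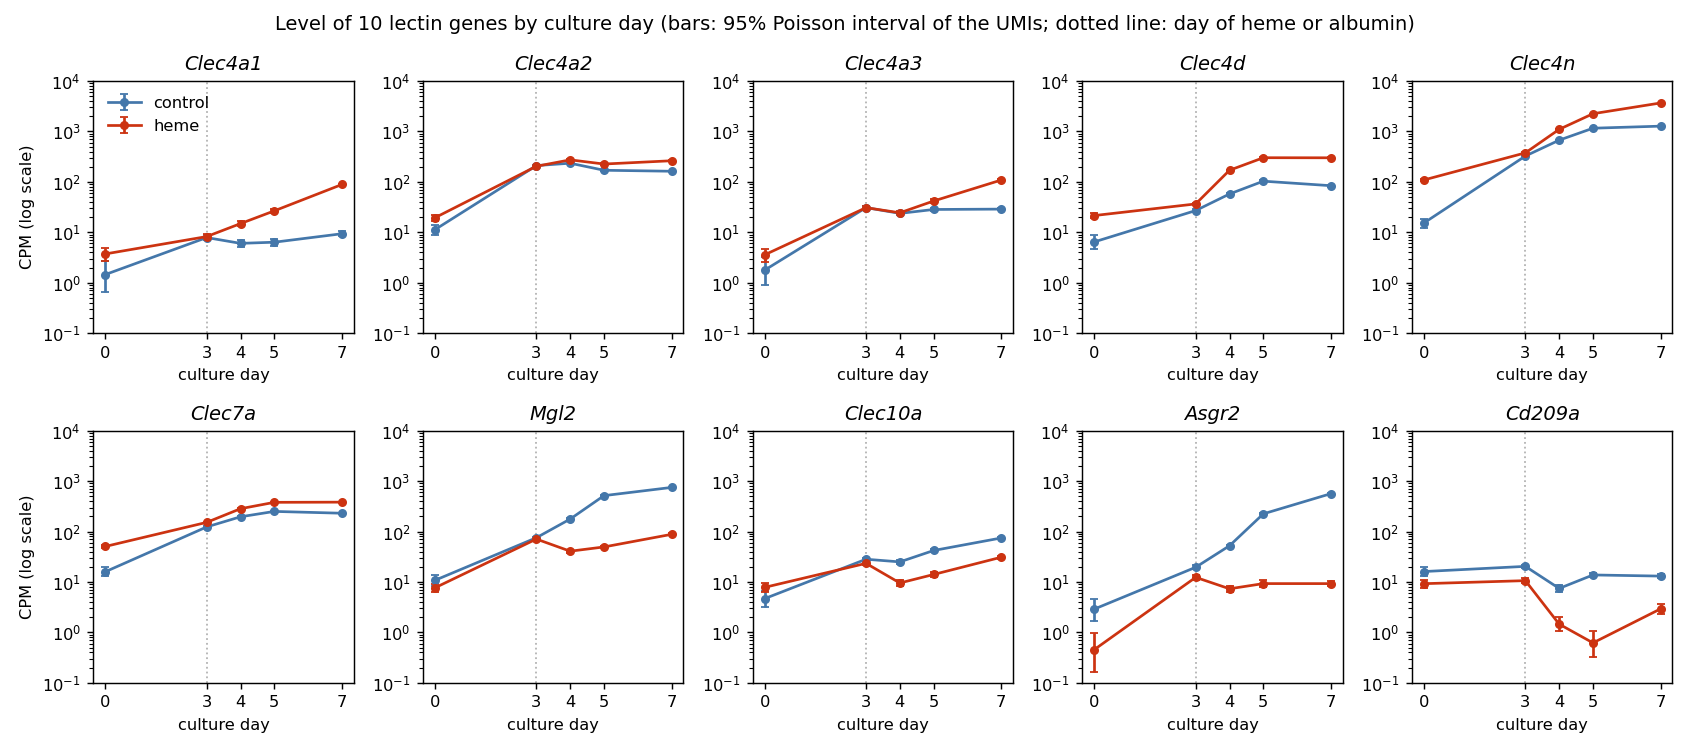
Level of each gene in CPM (log axis) on culture days 0, 3, 4, 5 and 7 in the control (blue) and heme (red) libraries, with bars for the 95% Poisson interval and a dotted line at day 3, when heme or albumin was added. On day 3 the curves lie within 2-fold of each other for all 10 genes, and on day 7 Asgr2 stood at 565 CPM in control and 9.28 CPM in heme, while Clec4a1 stood at 9.35 CPM in control and 88.7 CPM in heme.

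Among the receptors that couple to Syk, Clec4n rose in both libraries. It stood at 15.3, 325, 672, 1159 and 1274 CPM in control on days 0, 3, 4, 5 and 7. In heme it stood at 109, 376, 1101, 2248 and 3673 CPM on the same days. The cultures thus started close together on day 3, and both rose, the heme culture further. The ratio of heme to control was 1.16 (1.13 to 1.19) on day 3, 1.64 (1.61 to 1.67) on day 4, 1.94 (1.91 to 1.97) on day 5 and 2.88 (2.85 to 2.92) on day 7.

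Clec4d separated earlier. Its control levels were 6.44, 27.0, 57.5, 103 and 83.9 CPM, and its heme levels were 21.5, 36.5, 170, 301 and 300.2 CPM. The heme culture was 2.96-fold higher (2.79 to 3.14) already on day 4, 1 day after addition, and 3.58-fold higher (3.43 to 3.73) on day 7, against 1.35-fold (1.24 to 1.48) on day 3. In both libraries the level no longer rose from day 5 to day 7, and the 2 heme cultures did not differ beyond counting error.

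Clec7a stood higher on the later days in both libraries, with a small gap between them. Its control levels were 15.9, 124, 196, 251 and 231 CPM, and its heme levels were 50.6, 152, 284, 380 and 383 CPM. The ratio moved from 1.23 (1.18 to 1.29) on day 3 to 1.66 (1.61 to 1.71) on day 7. The gap depends on the upper limit of 5000 genes per cell: without it the log2 ratio was 1.21 instead of 0.53 on day 4, 1.65 instead of 0.60 on day 5 and 1.09 instead of 0.73 on day 7. GENCODE M21 lists Clec7a as a polymorphic pseudogene, a class for genes that are intact in some mouse strains only.

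The 3 Clec4a genes differed in timing and size. Clec4a1 stood at 1.45 CPM in control on day 0 and, with smaller changes from day 3 on, at 7.85, 6.03, 6.35 and 9.35 CPM. The heme cultures stood at 3.71, 8.22, 14.9, 26.6 and 88.7 CPM. Its ratio was 1.05 (0.875 to 1.25) on day 3, 2.47 (2.05 to 2.98) on day 4, 4.19 (3.51 to 5.02) on day 5 and 9.49 (8.44 to 10.7) on day 7. All 3 heme cultures after addition lay above all 5 control cultures, and the control cultures of days 4 and 5 did not differ beyond counting error.

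Clec4a3 followed later. It stood at 1.77, 30.8, 23.7, 28.3 and 28.8 CPM in control and at 3.56, 30.8, 24.3, 41.7 and 109 CPM in heme. The ratio on day 4 was 1.03 (0.920 to 1.15), with TMM factors it fell below 1, without the upper limit on genes the log2 ratio was 0.60 instead of 0.04, and a gap appeared on day 5, at 1.47 (1.33 to 1.63), and widened to 3.78 (3.51 to 4.06) on day 7. Clec4a2, the inhibitory receptor, had the lowest day 7 ratio of the 6, within counting error of Clec7a. Its control levels were 11.3, 210, 234, 170 and 162 CPM and its heme levels were 19.4, 204, 273, 226 and 262 CPM, which gave a ratio of 0.970 (0.937 to 1.00) on day 3 and 1.62 (1.56 to 1.67) on day 7.

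The galactose-binding lectins rose in control cultures and stood lower in heme than in control cultures on days 4, 5 and 7. Asgr2 climbed from 2.90 and 19.6 CPM on days 0 and 3 to 52.3, 225 and 565 CPM on days 4, 5 and 7 in control. In heme it was counted at 0.455, 12.4, 7.32, 9.28 and 9.28 CPM. The heme cultures of days 5 and 7 did not differ beyond counting error, so the widening of the gap came from the control library. The ratio was 0.631 (0.554 to 0.718) on day 3, 0.140 (0.120 to 0.162) on day 4, 0.0413 (0.0354 to 0.0480) on day 5 and 0.0164 (0.0144 to 0.0186) on day 7.

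Mgl2 stood at 10.8, 75.4, 177, 516 and 751 CPM in control. In heme it stood at 7.66, 71.0, 40.8, 49.5 and 88.1 CPM, so its 3 later heme cultures stayed near or below the level of day 3. Day 3 was close in both libraries (ratio 0.941, 0.888 to 0.998), and the ratio was 0.230 (0.215 to 0.246) on day 4, 0.0960 (0.0898 to 0.102) on day 5 and 0.117 (0.112 to 0.122) on day 7. Clec10a, its neighbour with shared 3′ sequence, stood at 4.67, 28.3, 25.0, 42.1 and 74.6 CPM in control and at 7.81, 23.4, 9.54, 14.1 and 31.0 CPM in heme. Its ratio was 0.828 (0.750 to 0.915) on day 3 and 0.415 (0.384 to 0.449) on day 7, a smaller gap than for Mgl2 and Asgr2. In heme Clec10a fell from day 3 to day 4 and then rose, ending above its day 3 level.

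Cd209a was the one gene of the 10 that did not end above its day 3 level in either library. It was counted at 16.1, 20.4, 7.45, 13.8 and 13.1 CPM in control and at 9.25, 10.6, 1.46, 0.619 and 2.93 CPM in heme, the last of these from 79 UMIs. The libraries differed before the exposure, with a ratio of 0.521 (0.455 to 0.595) on day 3, and lay at 0.196 (0.136 to 0.276), 0.0449 (0.0230 to 0.0794) and 0.224 (0.174 to 0.285) on days 4, 5 and 7. The order of its control levels on days 0, 5 and 7 was within counting error between neighbours. In the heme culture of day 7, 4 cells gated on C1qb carried 34.2% of its UMIs.

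A gene was counted as higher or lower when it differed by 2-fold or more and had 20 or more UMIs in both cultures together. All 10 genes were tested on each day. On day 3 none was higher and none lower (background of all genes 7.95% higher and 0.539% lower). On day 4 Clec4a1 and Clec4d were higher and Cd209a, Asgr2, Mgl2 and Clec10a were lower (background 9.64% higher and 2.98% lower), and on day 5 the same genes were higher and lower (background 9.27% and 3.75%). On day 7 the higher genes were 4, Clec4a1, Clec4a3, Clec4n and Clec4d, and the lower genes were the 4 of days 4 and 5 (background 14.9% higher and 7.67% lower). The median log2 ratio of the 10 genes was -0.02, 0.13, 0.48 and 0.71 on days 3, 4, 5 and 7, against 0.31, 0.28, 0.25 and 0.28 for all genes tested.

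**Figure D2:**
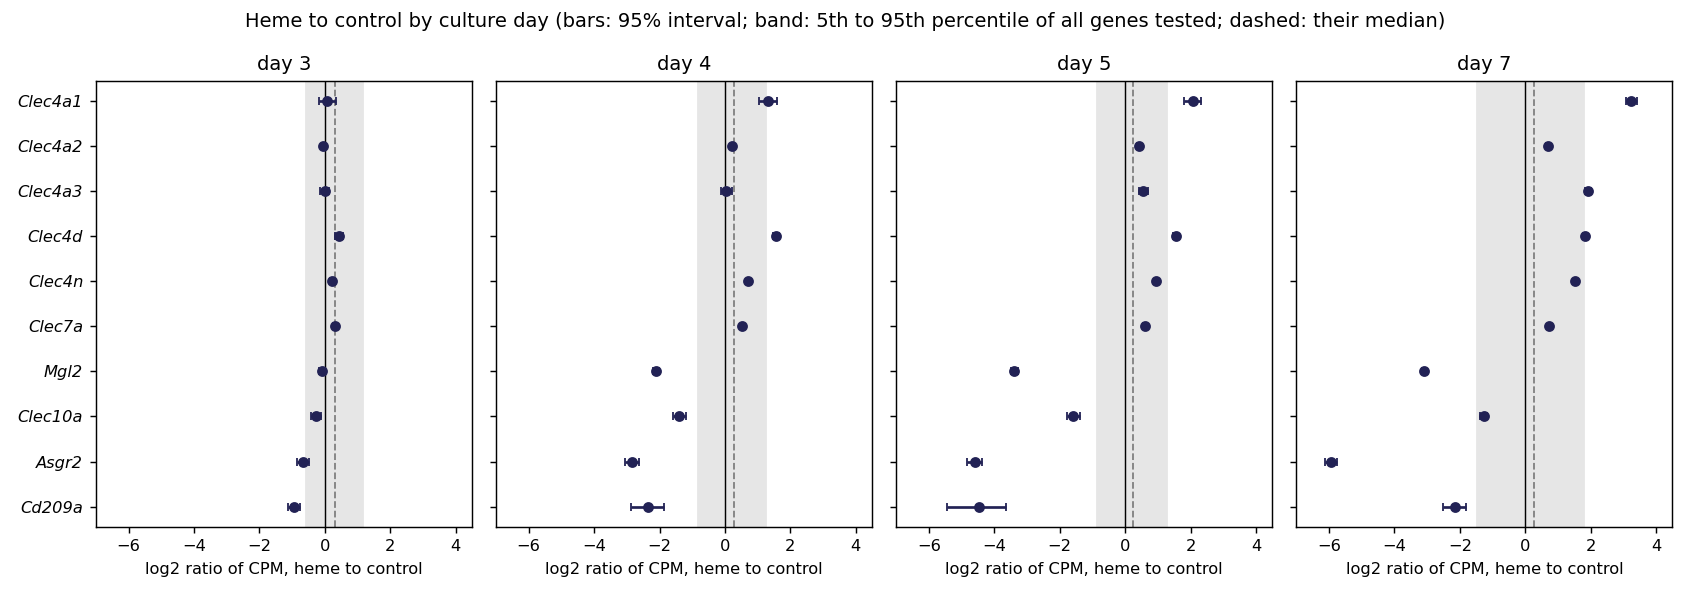
Log2 ratio of CPM, heme to control, for each gene on days 3, 4, 5 and 7, with bars for the 95% interval, a grey band from the 5th to the 95th percentile of all genes tested and a dashed line at their median. On day 7 Clec4a1 (3.25), Clec4a3 (1.92) and Clec4d (1.84) lie above the band, and Mgl2 (-3.09), Asgr2 (-5.93) and Cd209a (-2.16) lie below it.

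Measured from the median of all genes, the log2 ratio of day 7 was 2.96 for Clec4a1, 1.63 for Clec4a3, 1.56 for Clec4d, 1.25 for Clec4n, 0.45 for Clec7a and 0.41 for Clec4a2. On the same scale it was -1.55 for Clec10a, -2.44 for Cd209a, -3.37 for Mgl2 and -6.21 for Asgr2. The limit of 5000 genes bears on the earlier days: without it, 4 genes were higher on day 4 (with Clec4n and Clec7a added) and 5 on day 5 (with Clec4a3, Clec4n and Clec7a added), and 5 on day 7 (with Clec7a added), while the 4 lower genes were the same on each of these days. On day 5 its removal moved the log2 ratio of Clec4a3 from 0.56 to 1.17, that of Clec4n from 0.95 to 1.57 and that of Mgl2 from -3.38 to -2.48. Without the barcodes present in both libraries the counts were 2 higher and 4 lower on days 4 and 5 and 4 higher and 4 lower on day 7.

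The cultures of day 0 differed as well. There, 5 of the 10 genes were higher in the heme library (Clec4a1, Clec4a3, Clec4n, Clec4d and Clec7a) and Asgr2 was lower (background 20.9% higher and 1.75% lower). Clec4n had the highest of these ratios, 7.14 (5.79 to 8.88), and its day 0 level in the heme library was 7.01% of its mean over that library. Marco, Spic and Hmox1, genes of red pulp or iron-recycling macrophages, stood at 6.44%, 6.60% and 6.93% of their library means in the same cells, and Clec4a3 at 7.81%, whereas Clec4a1, Clec4d and Clec7a stood at 12.2%, 12.8% and 19.5%. The part of free RNA of the pool in these values was not tested. The ribosomal limit removed 59.8% of the control and 7.78% of the heme singlets of day 0, so the kept day 0 cells also differ in their selection.

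Within a library no difference between libraries enters. From day 3 to day 7 in control, Clec4n, Clec4d, Asgr2, Mgl2 and Clec10a were higher and none was lower (background 15.9% higher and 8.85% lower), with 28.9-fold (26.6 to 31.4) for Asgr2 and 9.96-fold (9.53 to 10.4) for Mgl2. In the heme library Clec4a1, Clec4a3, Clec4n, Clec4d and Clec7a were higher and Cd209a was lower (background 12.5% higher and 9.56% lower). There Clec4a1 was 10.8-fold (9.52 to 12.3), Clec4n 9.77-fold (9.58 to 9.95) and Clec4d 8.22-fold (7.74 to 8.75) above day 3, whereas Mgl2 was at 1.24-fold (1.17 to 1.32) and Asgr2 at 0.751-fold (0.639 to 0.881). Clec4n and Clec4d were thus the 2 genes counted as higher over time in both libraries.

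The share of cells in which a gene was counted moved with the levels. Each cell was thinned to 3000 UMIs, and 173 of 2715 control and 112 of 2012 heme cells of day 7 were shallower and left out. Day 0 cells with 3 or more summed UMIs of the erythroid genes Car1, Klf1 and Rhag, which should lack these receptors, served as background (178 control and 248 heme cells after thinning, with median depths of 19525.5 and 17618.5 UMIs before it, against 12029 and 13627 UMIs on day 7). Clec4a1 was counted in 3.30% (2.64 to 4.07) of control and 19.9% (18.1 to 21.8) of heme cells, with 0.403% of the heme background cells. Clec4d was counted in 19.3% (17.8 to 20.9) of control and 49.2% (46.9 to 51.4) of heme cells, with 8.47% of the heme background cells.

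For Clec4n the thinned share was 78.3% (76.6 to 79.9) in control and 87.8% (86.2 to 89.2) in heme, and the heme background was high, at 29.4%, with 2.81% in control. Unthinned, these shares were 87.6%, 94.0%, 74.0% and 16.9%, so that most day 0 erythroid cells of the heme library carried a Clec4n UMI. The thinned intervals of the day 7 cultures did not overlap, but the part of free RNA in these shares was not tested. Asgr2 was counted in 37.3% (35.4 to 39.2) of control and 1.32% (0.85 to 1.94) of heme cells. Its background was 0 of 248 heme cells, which allows a share of up to 1.21% at 3 cells, and 0 of 178 control cells, which allows up to 1.69%. The exact intervals of these shares reach 1.48% and 2.05%. The thinned heme share of Asgr2 on day 7 lay within the interval of the heme background, which rests on 248 cells. Unthinned, Asgr2 was counted in 54 of 2012 heme cells of day 7 and in 2 of 254 heme background cells. Its level was 9.28 CPM in the former and 0.498 CPM in the latter, or 12.4 and 0.787 UMIs per 100 cells. The difference between these levels was not tested. After thinning, Mgl2 was counted in 51.2% (49.3 to 53.2) of control and 10.4% (9.08 to 11.9) of heme cells, with a background of 2.81% and 0.806%.

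To ask which cells carried the receptors, cells were gated on Marco (a scavenger receptor of macrophages), Ccr7 (the chemokine receptor of migrating mature dendritic cells) and C1qb (a complement subunit made by macrophages), each at 3 or more UMIs, and on S100a8 (an abundant neutrophil protein) at 1% or more of the UMIs of the cell. Cells that passed 1 gate form a set, and cells in several gates and cells in no gate were kept apart. On day 7 the control culture held 10 Marco cells, 470 Ccr7 cells, 609 C1qb cells, 132 S100a8 cells, 37 cells in several gates and 1457 in none. The heme culture held 706 Marco cells, 37 Ccr7 cells, 4 C1qb cells, 461 S100a8 cells, 17 in several gates and 787 in none.

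Marker lists were summed without the gate genes and their partners C1qa, C1qc and S100a9, which would restate the gates. The other 7 mature dendritic cell markers summed to 5456 CPM in the control Ccr7 cells and 406 CPM in the control cells of no gate, and all were detected in both. The other 7 macrophage markers summed to 1138 CPM in the heme Marco cells and 756 CPM in the heme cells of no gate, and Cd5l was at 0 in both. In control they summed to 371 CPM in the C1qb cells, where Cd5l was at 0, and to 356 CPM in the cells of no gate, so that beyond the complement genes the C1qb cells were close to the cells of no gate on this list. The MHC class II genes summed to 22454 CPM in the control C1qb cells, 20329 CPM in the control Ccr7 cells and 11249 CPM in the control cells of no gate. In the 37 control cells in several gates they summed to 26423 CPM. In heme they summed to 2461 CPM in the Marco cells, 4034 CPM in the cells of no gate and 17219 CPM in the Ccr7 cells. High MHC class II was thus not particular to the C1qb cells. The other 6 neutrophil markers summed to 8736 CPM in control and 28202 CPM in heme S100a8 cells, against 559 and 1667 CPM in the cells of no gate. None of the 1366 day 0 cells of the heme library passed the Marco gate.

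**Figure D3:**
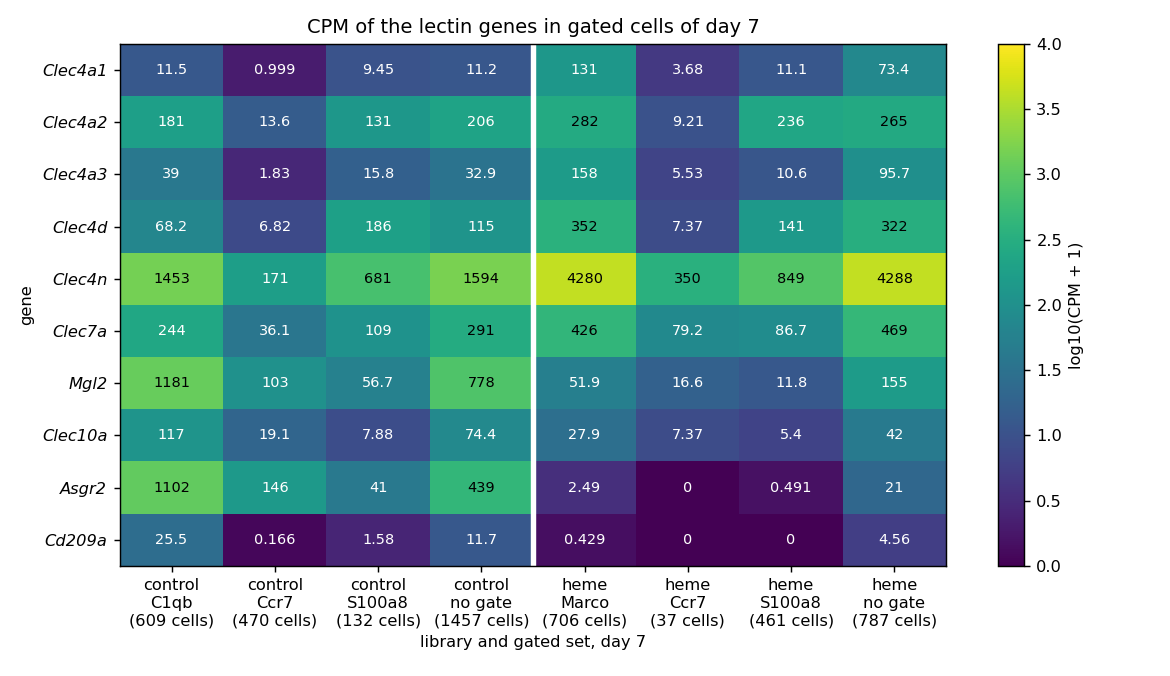
CPM of each gene in gated cells of day 7, printed in each field and shaded by log10(CPM + 1), for 4 sets of the control library (left) and 4 of the heme library (right), with the number of cells under each. Asgr2 (1102 CPM) and Mgl2 (1181 CPM) are highest in the control C1qb cells, and Clec4n stands at 4280 and 4288 CPM in the Marco cells and the cells of no gate of the heme library.

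The gates picked different sets in each library, with 10 Marco cells in the control and 4 C1qb cells in the heme culture of day 7. In the heme culture of day 7 the Marco cells made up 35.1% of the cells and held 64.2% of the UMIs of Clec4a1, 62.9% of Clec4a3, 50.8% of Clec4d, 50.4% of Clec4n and 48.1% of Clec7a. They also held 11666840 of the 26949526 gene UMIs of the culture. Their median was 17106.5 UMIs per cell, against 12997 in the cells of no gate. The UMI shares are therefore not to be read against the share of cells alone. Levels in these 706 cells were 131 CPM (125 to 138) for Clec4a1, 158 CPM (151 to 165) for Clec4a3, 352 CPM (342 to 363) for Clec4d and 4280 CPM for Clec4n. In the cells of no gate Clec4d and Clec4n were close to this, at 322 and 4288 CPM, whereas Clec4a1 and Clec4a3 were lower, at 73.4 and 95.7 CPM. Cells of no gate may hold 1 or 2 Marco UMIs. With the gates at 1 UMI, the 581 heme cells of no gate, which have no Marco UMI, stood at 64.8, 80.9, 319 and 4232 CPM for Clec4a1, Clec4a3, Clec4d and Clec4n, against 127, 154, 343 and 4318 CPM in the 829 Marco cells. Asgr2 and Cd209a were nearly at 0 in the Marco cells, with 29 and 5 UMIs, and Mgl2 stood at 51.9 CPM (47.8 to 56.2).

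In the control culture of day 7 the C1qb cells made up 22.4% of the cells and held 53.4% of the UMIs of Asgr2, 53.4% of Cd209a, 43.1% of Mgl2 and 42.9% of Clec10a. They also held 9484732 of the 34647365 gene UMIs of the culture. The cells of no gate held 39.7%, 45.7%, 52.9% and 50.9% of the UMIs of these genes in the same order. For the 6 genes of chromosome 6 the cells of no gate held from 58.4% (Clec4a3) to 69.8% (Clec4d). Asgr2 stood at 1102 CPM and Mgl2 at 1181 CPM in the C1qb cells, against 439 and 778 CPM in the cells of no gate. The Ccr7 cells were low in all 10 genes, with 171 CPM of Clec4n, 146 CPM of Asgr2, 103 CPM of Mgl2, 36.1 CPM of Clec7a and under 20 CPM for each of the other 6. Among sets of 30 or more cells, the C1qb set was the highest for Clec10a, Asgr2, Cd209a, Mgl2 and Clec4a3 in control under each of 5 other gate settings, and the Marco set was the highest for Clec4a1, Clec4a2, Clec4a3 and Clec4d in heme.

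**Figure D4:**
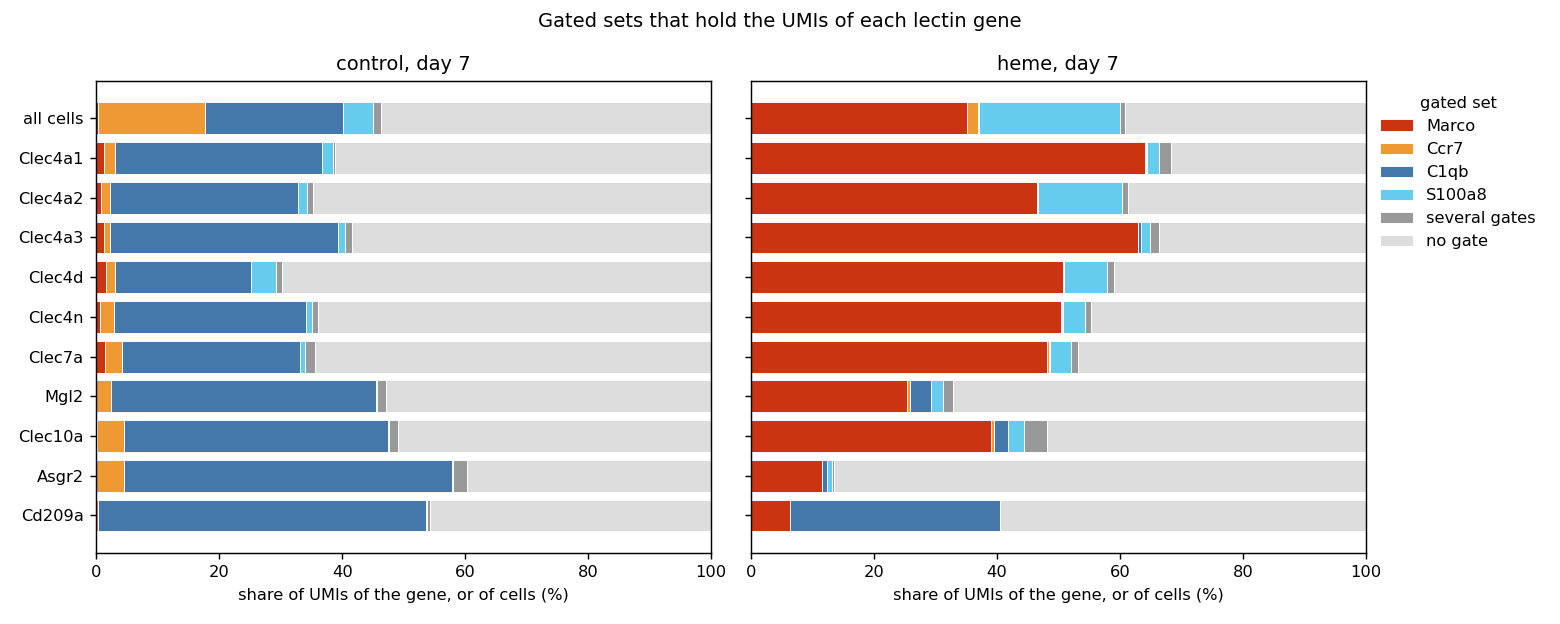
Share of the UMIs of each gene held by each gated set on day 7, with the share of cells in the top bar, in the control (left) and heme (right) library. In control the C1qb set (dark blue) holds 53.4% of the Asgr2 UMIs from 22.4% of the cells, and in heme the Marco set (red) holds 64.2% of the Clec4a1 UMIs from 35.1% of the cells. The sets differ in UMIs per cell, so the top bar is not their share of all UMIs.

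Clec4a2 had a set of its own before the exposure. In the S100a8 cells of day 3 it stood at 325 CPM in control and 279 CPM in heme, above the cells of no gate, at 95.1 and 94.5 CPM. The other genes ran the opposite way on that day. Clec4n, for example, stood at 30.3 CPM in the control S100a8 cells and 592 CPM in the control cells of no gate, and Clec7a stood at 10.3 and 227 CPM. On days 4 and 5 the control S100a8 cells had 4688 Clec4a2 UMIs of 14913531 gene UMIs and 2143 of 9036450. The control cells of no gate had 1338 of 9926398 and 1872 of 12244773, which is a lower level on both days. By day 7 Clec4a2 was lower in this set in control, with 131 CPM in the control S100a8 cells and 206 CPM in the control cells of no gate. In heme the 2 sets lay closer. With the gates at 1 UMI, heme stood at 233 CPM in the S100a8 cells and 256 CPM in the cells of no gate. Control stood at 126 and 210 CPM under that setting.

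Heme and control were compared within a set when both cultures held 30 or more cells. In the cells of no gate on day 7, 4 genes were higher, namely Clec4a1 (6.56-fold, 5.60 to 7.71), Clec4a3 (2.91-fold), Clec4d (2.81-fold) and Clec4n (2.69-fold), and 3 were lower, namely Cd209a (0.390), Mgl2 (0.199) and Asgr2 (0.0478, 0.0415 to 0.0547). The background was 10.8% higher and 5.95% lower. Clec10a was at 0.565 (0.506 to 0.630), Clec4a2 at 1.29 and Clec7a at 1.61. The cells of no gate are a mixture, and the sums of their macrophage markers given above differed between heme and control; their part in these ratios was not tested. On day 3, before the exposure, the ratios in the cells of no gate were 1.01 for Clec4a1, 1.15 for Clec4a3, 1.43 for Clec4d, 1.26 for Clec4n, 0.628 for Cd209a, 1.23 for Mgl2 and 0.910 for Asgr2.

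In the Ccr7 cells of day 7, which numbered 470 in control and 37 in heme, 7 genes could be compared. Clec4n (2.05-fold, 1.75 to 2.40) and Clec7a (2.19-fold, 1.54 to 3.05) were higher and Asgr2, Mgl2 (0.160, 0.0730 to 0.306) and Clec10a (0.385, 0.103 to 1.01) were lower (background 20.8% higher and 8.68% lower). Asgr2 had 880 UMIs in the control Ccr7 cells and none in the heme Ccr7 cells, at least 26.5-fold lower when the latter are set to a floor of 3 UMIs. For Clec10a the heme value rests on 4 UMIs, and its interval reaches past 1. The sizes depend on the gate, and so does the direction for Clec10a. With the gates at 1 UMI, 49 heme and 467 control cells formed the Ccr7 sets. Clec4n then stood at 2046 CPM in heme and 193 CPM in control, and Clec7a at 244 and 37.2 CPM. Mgl2 stood at 57.6 and 123 CPM, Asgr2 at 0 and 148 CPM, and Clec10a at 27.4 and 21.0 CPM. The part of free RNA in these values was not tested.

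The S100a8 cells differed between the libraries before the exposure. On day 3, with 1326 heme and 1017 control cells, 6 of the 10 genes were higher in heme, namely Clec4a1 (5.05-fold, 2.49 to 11.6), Clec4n (3.48-fold, 3.14 to 3.87), Clec7a (3.14-fold, 2.62 to 3.77), Cd209a (3.03-fold, 0.977 to 12.4), Clec4d (2.20-fold, 1.73 to 2.83) and Clec4a3 (2.13-fold, 1.42 to 3.28), and Asgr2 was lower (0.0378, from 3 UMIs in heme). The background was 13.9% higher and 1.23% lower. Marco was counted at 6.75 CPM in these heme cells and at 0 in the control cells.

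On day 4 the heme cells of this set (2060, against 1442 in control) had 5.66-fold (3.09 to 11.3) more Clec4a1, 4.95-fold (4.63 to 5.29) more Clec4n, 4.34-fold (3.95 to 4.77) more Clec4d and 2.02-fold (1.44 to 2.86) more Clec4a3, while Asgr2 (0.176, 0.0787 to 0.358) and Cd209a (0.433, 0.167 to 1.06) were lower (background 13.6% higher and 1.02% lower). Of the 4 higher genes, Clec4d and Clec4n lay above their day 3 ratios beyond the counting intervals, and Clec4a1 and Clec4a3 did not. On day 5 the ratios of Clec4a1, Clec4n, Clec4d and Clec4a3 were 7.93, 2.83, 2.40 and 2.54, and Asgr2 (0.0503) and Mgl2 (0.475) were lower among 9 genes tested (background 10.8% higher and 1.73% lower). On day 7, with 461 heme and 132 control cells, none of the 9 genes tested was higher and Asgr2 (0.0120, 0.00138 to 0.0479) and Mgl2 (0.208, 0.132 to 0.330) were lower (background 16.6% higher and 4.32% lower). Clec4d was then at 0.757 (0.620 to 0.931), with 186 CPM in control and 141 CPM in heme, and Clec4n at 1.25 (1.13 to 1.38). With the S100a8 gate at 3% the control level of Clec4d was 131 CPM.

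Levels in these cells have to be set against free RNA of the pool. In the erythroid cells of day 0 of the heme library, Clec4n stood at 96.1 CPM, Clec4d at 23.9 CPM and Clec4a1 at 2.24 CPM, against 9.99, 1.47 and 0 CPM in control. In the heme S100a8 cells of day 4 the same genes stood at 337, 154 and 4.55 CPM, and in the control S100a8 cells at 68.1, 35.4 and 0.804 CPM. The cells differ in depth, with a median of 17618.5 UMIs in the heme erythroid cells and 8404.5 UMIs in the heme S100a8 cells of day 4. Per 100 cells, Clec4n had 152 UMIs in the heme erythroid cells of day 0, 154 in the heme S100a8 cells of day 3 and 337 in those of day 4. Clec4d had 37.8, 20.2 and 154 UMIs per 100 cells in the same order, and Clec4a1 had 3.54, 4.52 and 4.56. The part of free RNA in the ratios was not tested.

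The other C-type lectins were followed by a list of 32 genes, of which 21 were tested on day 7. Of these, 5 were higher in heme (Clec4b2, Mrc1, Cd302, Colec12 and Cd93) and 5 were lower (Clec4b1, Clec1a, Cd209d, Cd69 and Klrb1b), with a median log2 ratio of 0.01 (background of all genes 14.9% higher and 7.67% lower). The 4 genes with the largest ratios were Clec4b1, Klrb1b, Cd209d and Cd93. Clec4b1, a further relative of Clec4a2, stood at 89.0 CPM in control and 7.46 CPM in heme, a ratio of 0.0838 (0.0723 to 0.0967), opposite in direction to Clec4a1, Clec4a3, Clec4n and Clec4d. Cd93, a lectin-like receptor of myeloid and endothelial cells, stood at 35.5 CPM in control and 177 CPM in heme, 4.98-fold higher (4.68 to 5.31), and had been 3.87-fold higher on day 0 and 1.40-fold (1.31 to 1.49) higher on day 3.

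Of 16 signal adaptors and kinases, all tested on day 7, 5 were higher in heme (Syk, Plcg2, Vav1, Inpp5d and Lyn) and none was lower, with a median log2 ratio of 0.31 against 0.28 for all genes (background of all genes, as above, 14.9% higher and 7.67% lower). Syk, the kinase that Clec7a and the gamma chain recruit, stood at 84.1 CPM in control and 174 CPM in heme, 2.07-fold higher (1.97 to 2.16), but had been 1.78-fold higher (1.70 to 1.87) on day 3, before the exposure. Lyn, a Src-family kinase, was 2.20-fold higher (2.10 to 2.31) on day 7 and 1.22-fold on day 3. Plcg2 (phospholipase C gamma 2) was 2.08-fold higher on day 7 and 1.66-fold on day 3, and Vav1 (a guanine nucleotide exchange factor) 2.06-fold and 1.62-fold. The ratios of Syk, Plcg2 and Vav1 thus stood largely on day 3 already, when that of Clec4a1 was 1.05. On day 0 all 4 of these genes were counted as higher in heme. Syk was then 2.40-fold higher, and Clec4a1 stood at 3.71 CPM in heme and 1.45 CPM in control.

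The genes with the most similar course over the 10 cultures were sought by Pearson's r of log2(CPM + 10) among 4609 genes that reach 50 CPM in a culture. Cultures of a library share its depth and free RNA, so r is a description only. Clec4a1 was most like Treml4 (r = 0.979), Camk1 and Aopep, Clec4a3 most like Socs3 (0.994), Serp1 and Dab2, and Clec4a2 most like Leprotl1 (0.996), Plin3 and Aldh3b1. Clec4n was most like Grn (0.986), Nek6 and Mmp12, Clec4d most like Ubxn6 (0.987), Nabp1 and Trpv2, and Clec7a most like Cd53 (0.99), Ifngr2 and Ubl3. Asgr2 was most like Clec4b1 (0.994), Ckb and C1qb, Mgl2 most like Iah1 (0.972), H2-DMb2 and Cysltr1, and Clec10a most like Sdc3 (0.969), Slamf9 and Iah1. Cd209a, which never reached 50 CPM itself, was most like Etfb (0.954), Ssbp4 and Uqcrq.

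Among the 10 genes, r was 0.987 for Clec4n with Clec7a, 0.937 for Clec4n with Clec4d, 0.95 for Mgl2 with Asgr2 and 0.938 for Mgl2 with Clec10a. Clec4a1 had r of 0.855 with Clec4a3 and 0.546 with Clec4a2, although the 3 genes lie in the same stretch of the chromosome. Asgr2 and Clec4a1, which differed most between the libraries in opposite directions, had an r of -0.14.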

How the data were processed

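Droplet libraries that count 3′ ends of transcripts were analysed, 1 from control and 1 from heme cultures. Each deposited matrix holds unnormalized UMI counts of genes by barcode, which the authors obtained with Cell Ranger. The submitters' processing notes name Cell Ranger 4.0.0 and the build GRCm38.p6, and the matrix headers name version 5.0.0. Hashtag calls, deposited as text, stem from HTODemux in Seurat (quantile 0.99) and were taken over. Samples were grouped by their labels. Here, singlets were filtered with the limits stated in the methods of the study, with the mitochondrial and ribosomal limits read as upper limits. UMIs were summed per culture or gated set, and CPM were computed from the total of gene UMIs. Doublets were removed only through the hashtag calls. Ratios have exact conditional intervals for 2 Poisson counts, shares exact (Clopper-Pearson) intervals, both at the 95% level. A count of 0 is read as allowing 3 UMIs. UMIs are molecules, and intervals cover counting error only. With 1 library per group there is no test. The ratio script was tested on simulated data.

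The members and the lists were chosen with earlier results of these data known. The genes named are the 10 members, the 4 gate genes, for each member the 3 other genes with the highest r, and of the lists of other C-type lectins and of adaptors the 4 with the largest day 7 ratio, besides marker genes and the names behind each count of 5 or fewer. Gene identifiers were matched to GENCODE M21 (26090 of 26124 found), and positions only locate the genes. Alternatives used TMM factors of edgeR 4.0.16, size factors of DESeq2 1.42.0, other cell filters, gates, depths and thresholds (Python 3.11.15, scipy 1.17.1, R 4.3.3). The erythroid background gate was recomputed from 3 genes after the results had been seen, since a further planned gene is not reported here.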

Additional observations from a re-analysis of the deposited data

Results flagged for a closer look

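The ratio of Clec4d, heme to control, went in opposite directions in 2 gated sets of day 7. It was 2.81 in the cells of no gate and 0.757 in the S100a8 cells, and the difference between these ratios was not tested. The level in the control S100a8 cells depends on the gate, with 186 CPM at 1% and 131 CPM at 3%. These cells had a median of 3647 UMIs in control and 7412 UMIs in heme. Their neutrophil markers other than S100a8 and S100a9 summed to 8736 CPM in control and 28202 CPM in heme. Barcodes without a hashtag (1218 in heme and 652 in control) entered no comparison, and 2 of the 10 genes were 2-fold or more higher in those of the heme library, where 23% of all genes tested were. Clec4a1 had 37 UMIs in heme and 2 in control there, a ratio of 7.18 (1.85 to 61.5), and Clec4a2 had a ratio of 2.06 (1.66 to 2.59). In the same barcodes Mgl2 was at 0.160 (0.130 to 0.195) and Asgr2 had 7 UMIs in heme against 185 in control.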

How the results depend on the processing

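No paired analysis was possible because each group was 1 library and no test was made. Counts of higher or lower genes stayed within 1.5 times of the value in the report in 119 cases and left that range in the 15 named here. Ratios of single genes, levels in gated sets and shares of cells, the latter also at other depths, were less stable. Of their alternative values 493 lay within the counting interval of the main value, 335 lay outside it and 2 had the opposite sign. On day 7 the 4 higher genes were also called under every alternative, with Clec7a added for all singlets and without the upper limit on genes, and Clec4a2 and Clec7a added at 1.5-fold. On day 3 the count of lower genes was 1 instead of 0 (Cd209a) with TMM factors, DESeq2 size factors, without the 5% of cells with most UMIs, with the mean CPM of single cells and with day 0 CPM subtracted, and 2 at 1.5-fold. With all singlets, and also without the upper limit on genes, 4 instead of 2 genes were higher on day 4, 5 instead of 2 on day 5, and 2 instead of 1 were lower from day 3 to day 7 in heme. At 1.5-fold, 4 were higher on day 5. In control, 1 gene was lower from day 3 to day 7 at 1.5-fold and with day 0 CPM subtracted. Subtracting day 0 CPM turned the log2 ratio of Cd209a to 0.42 on day 5 and 0.36 on day 7, since its day 0 level exceeded these levels in both libraries and they were set to the floor of 3 UMIs. Divided by the day 3 ratio, a choice made after seeing the data, 3 instead of 4 genes were lower on day 7, without Clec10a, and with day 0 CPM subtracted also 3, without Cd209a. Depth limits Cd209a in heme and Clec10a in the Ccr7 cells, which rest on few UMIs.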
